A study of Mus musculus with 14 samples.

Results

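Newborn WT spinal column was compared with newborn WT spinal cord, each sequenced as 1 poly-A RNA-seq library. These are 2 of the 14 samples of the series, which otherwise covers mouse ES cells, embryoid bodies (EBs) differentiated toward motor neurons and a spinal column library labelled as *Taf9b* KO. Both libraries are labelled as wild type tissue of the strain C57BL/6, and their labels also carry the name of an ES cell line, the JM8 clone. The spinal column was whole lumbar tissue, dissected as the WT littermate control of the KO. The level at which the cord was taken, the number of pups behind each library and their sex are not given. The members of the comparison are the 23094 loci, of 23109 found in both tables, that Cuffdiff did not set aside as too deeply covered (status HIDATA). With 1 library per tissue there are no replicates, so no difference below carries a test or an error. The level of the targeted gene could not check the KO labels. The study's deletion removes the coding exons of *Taf9b*, and FPKM is a value for the whole transcript, in which reads of the deleted part cannot be told apart. *Taf9b* was at 3.31 FPKM in the column labelled KO, against 6.65 FPKM in the column labelled WT. In ES cells and EBs it was at 3.06 to 4.27 FPKM in the 4 libraries labelled KO and at 0.516 to 1.96 FPKM in the 4 labelled WT. WT and KO below are names of libraries as labelled.

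The spinal column holds the spinal cord together with what surrounds it: vertebrae that are still partly cartilage at birth, the marrow inside them, back muscle, tendon, meninges, vessels, and the sensory ganglia and nerve roots at its sides. A gene made by those surrounding tissues is therefore read in the column and hardly in a cleanly dissected cord, while a gene made by cord neurons or glia is read in both but diluted in the column. In bulk tissue a lower level can come from fewer cells of a type or from less RNA per cell, and the 2 cannot be told apart.

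The levels are FPKM values (fragments scaled to the length of the transcript and the size of the library) from 2 tables that were normalized separately. Each log2 ratio of column over cord was centred on the median of the 12451 loci above 1 FPKM in both tissues, which lay at 0.924-fold before centring, and every ratio and fold below is on this centred scale. Among the 14198 loci above 1 FPKM in at least 1 tissue, 2735 were higher in the column past 2-fold (19.3%) and 1952 were lower (13.7%). Past 8-fold there were 834 loci higher in the column (5.87%) and 63 lower (0.444%). Most of them passed the 1 FPKM filter through 1 tissue only. Of the 834, 571 were at or under 1 FPKM in cord and 147 of these at 0, and of the 63, 58 were at or under 1 FPKM in the column. With 1 FPKM added to both values the numbers past 8-fold were 417 and 18, and among loci above 5 FPKM they were 554 and 24. The split at 2-fold depended on the scaling. When each library was scaled to its summed FPKM instead, which placed the median of all loci at -0.36 on the log2 scale against 0.04, 1974 loci were higher and 3377 were lower. The WT ES cell library appears in the cord table and in another table of the series, and gave ratios between them with an SD of 0.0003 on the log2 scale. Since this is the same library on both sides, the SD holds no variation between libraries or animals. The column table is not part of it. Between the column libraries labelled KO and WT the SD was 0.69, and between column and cord it was 1.11. The number of loci past 8-fold among those above 1 FPKM in both libraries was 24 for KO over WT and 268 for column over cord.

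**Figure D1:**
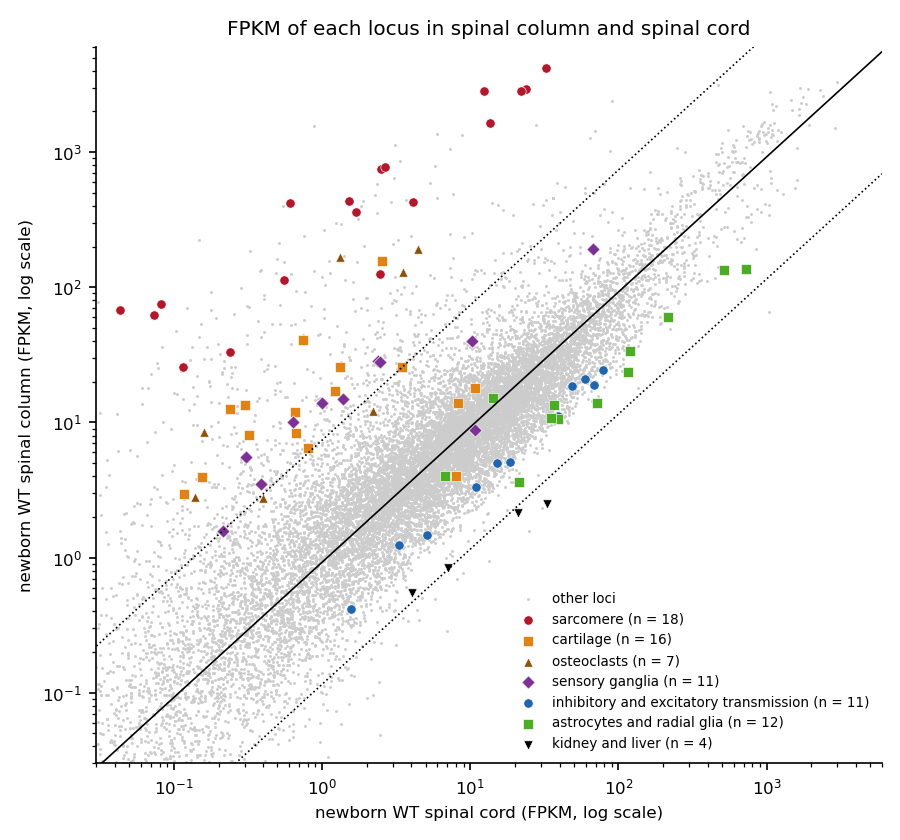
Each point is 1 locus of at least 0.03 FPKM in both tissues, with its FPKM in newborn WT spinal cord on the x axis and in newborn WT spinal column on the y axis, both on log scales. The solid line is the centred ratio of 1 and the dotted lines are 8-fold to either side. The sarcomere genes lie above the upper dotted line, and the astrocyte and transmission genes lie below the solid line with the exception of *S100b*.

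Genes of skeletal muscle stood furthest above the cord. Of 51 muscle genes in 4 lists, 5 had status HIDATA, 2 stayed under 1 FPKM in both tissues (*Pax3* and *Chrne*), and 44 of the remaining 44 were higher in the column, against 19.3% of all loci. Past 8-fold were 43 of them, with *Dok7* below that size. Together the muscle genes without HIDATA status made up 4.52% of the summed FPKM of the column and 0.0388% of that of the cord. In the column library labelled KO they made up 4.76%.

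The sarcomere is the contractile unit of muscle, in which myosin filaments pull on actin filaments under the control of troponin and tropomyosin. All 19 measured sarcomere genes were past 8-fold, with a median log2 ratio of 7.84 and a range of 5.79 to 10.73. *Tnnc2*, the calcium-binding troponin subunit of fast fibres, was listed at 4167 FPKM in column and 32.4 FPKM in cord, a 139-fold difference, and had the highest FPKM of any locus used in the column. *Tnnt3* (2927 and 23.6 FPKM) and *Tnni2* (2836 and 22.0 FPKM), its partners in the fast troponin complex, were higher by 134-fold and 139-fold. The 3 fast subunits thus stood at almost the same ratio. Cardiac actin *Actc1*, which developing skeletal muscle also makes, was at 2843 FPKM in column and 12.3 FPKM in cord. The embryonic myosin heavy chain *Myh3* was at 420 FPKM in column and 0.612 FPKM in cord. The adult fast chains *Myh1*, *Myh2* and *Myh4* lay between 61.9 and 75.2 FPKM in column and between 0.0432 and 0.0821 FPKM in cord, and *Myh4* had the highest ratio of the list. *Actn3*, an actinin of fast fibres (126 and 2.47 FPKM), had the lowest. Titin, encoded by *Ttn*, was at 4.80 and 0.0279 FPKM.

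Beyond the sarcomere, the 10 measured genes of muscle membrane, calcium handling and fuel use were all past 8-fold, with a median log2 ratio of 7.26. *Atp2a1*, the calcium pump of the sarcoplasmic reticulum, had the highest ratio of any gene above 1 FPKM in both tissues, at 1122 FPKM in column and 3.12 FPKM in cord, or 390-fold. *Ryr1*, the calcium release channel of the same membrane, had the lowest of the list at 19.8 and 0.517 FPKM, or 41.4-fold. The L-type channel subunit *Cacna1s*, which triggers that release, was at 37.7 and 0.197 FPKM. The next highest ratios among genes above 1 FPKM in both tissues belonged to *Actn2*, *Mybpc1*, *Tnni1*, *Car3*, *Myot*, *Cox8b*, *Itgb1bp2*, *Actc1* and *Myl2*, at 7.96 to 8.33 on the log2 scale. Most of these encode sarcomere or Z-disc proteins, *Cox8b* encodes a muscle form of a cytochrome c oxidase subunit and *Car3* a carbonic anhydrase of muscle. All 10 stood between 256 and 4211 FPKM in the column library labelled KO.

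The transcription factors that set the muscle fate were read at lower levels, but the median ratio of their list was still further from the cord. *Myod1* was at 25.1 FPKM in column and 0.0783 FPKM in cord, *Myog* at 92.8 and 0.178 FPKM, and *Myf5* (4.36 FPKM) and *Myf6* (27.3 FPKM) were listed at 0 in the cord. The fusion factor *Tmem8c*, also known as myomaker, was at 69.9 and 0.122 FPKM. *Pax7*, a marker of satellite cells, the stem cells of muscle, was at 1.77 and 0.230 FPKM. It had the lowest ratio of the 7 measured myogenic regulators, whose median was 9.14. At 3.06 on the log2 scale it stood below all measured sarcomere genes, which started at 5.79. The regulators named here were under 1 FPKM in cord, so their ratios and the median rest on values near 0.

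At the neuromuscular junction the acetylcholine receptor of fetal muscle contains a gamma subunit, encoded by *Chrng*, that an epsilon subunit, encoded by *Chrne*, replaces after birth. *Chrng* was at 27.6 FPKM in column and 0.0770 FPKM in cord and the delta subunit *Chrnd* at 14.1 FPKM and about 0, while *Chrne* was at 0.318 FPKM in column and listed at 0 in cord. The shared subunits *Chrna1* (17.6 and 0.267 FPKM) and *Chrnb1* (25.8 and 0.257 FPKM) were higher by 71.3-fold and 109-fold. The receptor kinase *Musk*, which organizes the junction, was at 10.2 and 0.347 FPKM, and the clustering protein *Rapsn* at 15.1 and 0.377 FPKM. *Dok7*, an activator of that kinase, was at 5.47 and 2.21 FPKM, or 2.68-fold.

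Because these muscle genes moved together, their promoters were searched, on both strands, in the 250 bases before the start of each RefSeq gene (build GRCm38.p6). The E-box CAGCTG, 1 form of the motif that MYOD family factors can bind, was found in 19 of 40 muscle promoters (47.5%) and in 12.8% of all 27025 promoters. It was found in 6 of 32 promoters of the skeleton lists (18.8%), in 5 of 62 promoters of the cord neuron and glia lists (8.06%) and in 19.8% of the 561 promoters of loci higher past 8-fold. The CArG box, the motif of serum response factor, was in 3 of 40 muscle promoters (7.50%) and in 1.40% of all promoters, and the MEF2 site in 1 of 40 (2.50%) and in 0.518%. TATAAA was in 5 of 40 (12.5%) and in 8.12%. TATAAA can lie inside a CArG box or a MEF2 site, and a match describes the letters in the window, not a bound site. The promoters of the receptor subunits *Chrna1* and *Chrng*, each with a pair of E-boxes, and of *Actc1*, with a CArG box, are shown as examples of both motifs, which stand in capitals.
Chrna1, chr2:73580339-73580588, minus strand, E-boxes starting 92 and 44 bases before the start: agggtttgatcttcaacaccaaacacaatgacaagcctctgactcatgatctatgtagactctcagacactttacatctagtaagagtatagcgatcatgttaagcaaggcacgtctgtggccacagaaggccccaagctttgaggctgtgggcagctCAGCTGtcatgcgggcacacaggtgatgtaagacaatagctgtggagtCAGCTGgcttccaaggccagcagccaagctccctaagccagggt
Chrng, chr1:87205561-87205810, plus strand, E-boxes starting 155 and 132 bases before the start: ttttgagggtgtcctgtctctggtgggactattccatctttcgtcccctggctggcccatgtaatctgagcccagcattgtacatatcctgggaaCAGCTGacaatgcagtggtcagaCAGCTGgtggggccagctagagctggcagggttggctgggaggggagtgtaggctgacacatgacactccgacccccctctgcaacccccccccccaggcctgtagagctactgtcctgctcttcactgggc
Actc1, chr2:114052876-114053125, minus strand, CArG box starting 47 bases before the start: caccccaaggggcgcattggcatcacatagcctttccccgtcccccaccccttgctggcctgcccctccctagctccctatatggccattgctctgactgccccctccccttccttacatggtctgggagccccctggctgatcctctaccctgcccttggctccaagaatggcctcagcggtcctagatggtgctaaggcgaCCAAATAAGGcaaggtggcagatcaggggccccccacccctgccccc

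Of the 15 loci set aside as HIDATA 5 are muscle genes, so the counts above leave out some of the most abundant muscle transcripts. In the WT column *Myl1*, *Mylpf* and *Ckm* were listed at 7810, 6728 and 3407 FPKM, and in cord at 47.9, 52.5 and 14.7 FPKM, while the column labelled KO listed all of them at 0. *Acta1*, skeletal actin, was listed at 0 in both column libraries and at 112 FPKM in cord. *Myh8*, the perinatal myosin, was at 0 in the WT column, 753 FPKM in the column labelled KO and 4.61 FPKM in cord. The same status held for *Gapdh* (4121 FPKM in column and 1182 FPKM in cord), for *A930016O22Rik* (208 and 1.15 FPKM), which shares its locus with *Ckm*, and for *Eef1a1*, *H19*, *Igf2*, *Igf2os* and a ribosomal RNA locus, which were at 0 in column and at 2238, 298, 196, 1.05 and 961 FPKM in cord. *Mir483*, which had this status in the column table only, was at 0 in both tissues. In the cord table it held for *Tuba1a*, at 1782 FPKM in column and 0 in cord, and for *Myo3a*. A zero under this status gives no estimate of the transcript.

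Genes of the skeleton formed the next group. Of 45 measured genes 42 were higher in the column and 35 past 8-fold, beside 19.3% and 5.87% of all loci. Their median log2 ratio was 4.45, and they made up 0.935% of the summed FPKM of the column against 0.0638% of the cord. In cartilage 14 of 17 measured genes were higher. *Col2a1*, its main collagen, was at 156 FPKM in column and 2.52 FPKM in cord, or 66.8-fold, and *Acan*, its main proteoglycan, at 8.10 and 0.320 FPKM. *Col10a1*, which marks the hypertrophic cartilage that bone replaces, was at 40.6 and 0.741 FPKM, and *Matn1* was at 3.94 and 0.154 FPKM. The 3 genes within 2-fold were *Col9a2*, *Col9a3* and *Sox9*. *Sox9*, the master regulator of cartilage that glia also use, was at 3.99 FPKM in column and 8.06 FPKM in cord.

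All 12 measured genes of bone-forming cells were higher in the column. *Col1a1* was at 1423 FPKM in column and 68.9 FPKM in cord, a 22.4-fold difference, and *Spp1*, a phosphoprotein of bone matrix, at 784 and 5.82 FPKM, or 146-fold. The osteoblast factor *Sp7* was at 3.66 and 0.451 FPKM. *Bglap*, which encodes osteocalcin and marks mature osteoblasts, was at 14.4 FPKM in column and 0 in cord, and *Ibsp* was at 109 and 1.62 FPKM. *Alpl*, a phosphatase that many tissues express, was at 14.5 and 6.92 FPKM, the lowest ratio of the list. Osteoclasts, the cells that resorb bone and cartilage, were represented by 8 genes, of which 8 were higher. *Ctsk*, the protease that digests bone collagen, was at 193 and 4.41 FPKM, *Acp5* at 169 and 1.32 FPKM, and *Mmp9* at 130 and 3.49 FPKM. *Tcirg1*, a proton pump subunit, had the lowest ratio at 12.2 and 2.21 FPKM.

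The 8 genes of tendon and ligament were also all higher. *Tnmd*, a membrane protein of tendon cells, was at 78.4 FPKM in column and 0.0307 FPKM in cord, and *Fmod* was at 104 and 13.6 FPKM. *Scx*, the transcription factor of tendon precursors, was at 20.2 and 7.35 FPKM, the lowest ratio of the list. The notochord, which becomes the core of the disc, was hardly visible. Its factors *T* and *Foxa2* stayed under 1 FPKM in both tissues, *Shh* was at 0.746 and 1.14 FPKM, and only the keratins *Krt8* (2.09 and 0.194 FPKM) and *Krt18* (2.28 and 0.247 FPKM) were past 2-fold.

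**Figure D2:**
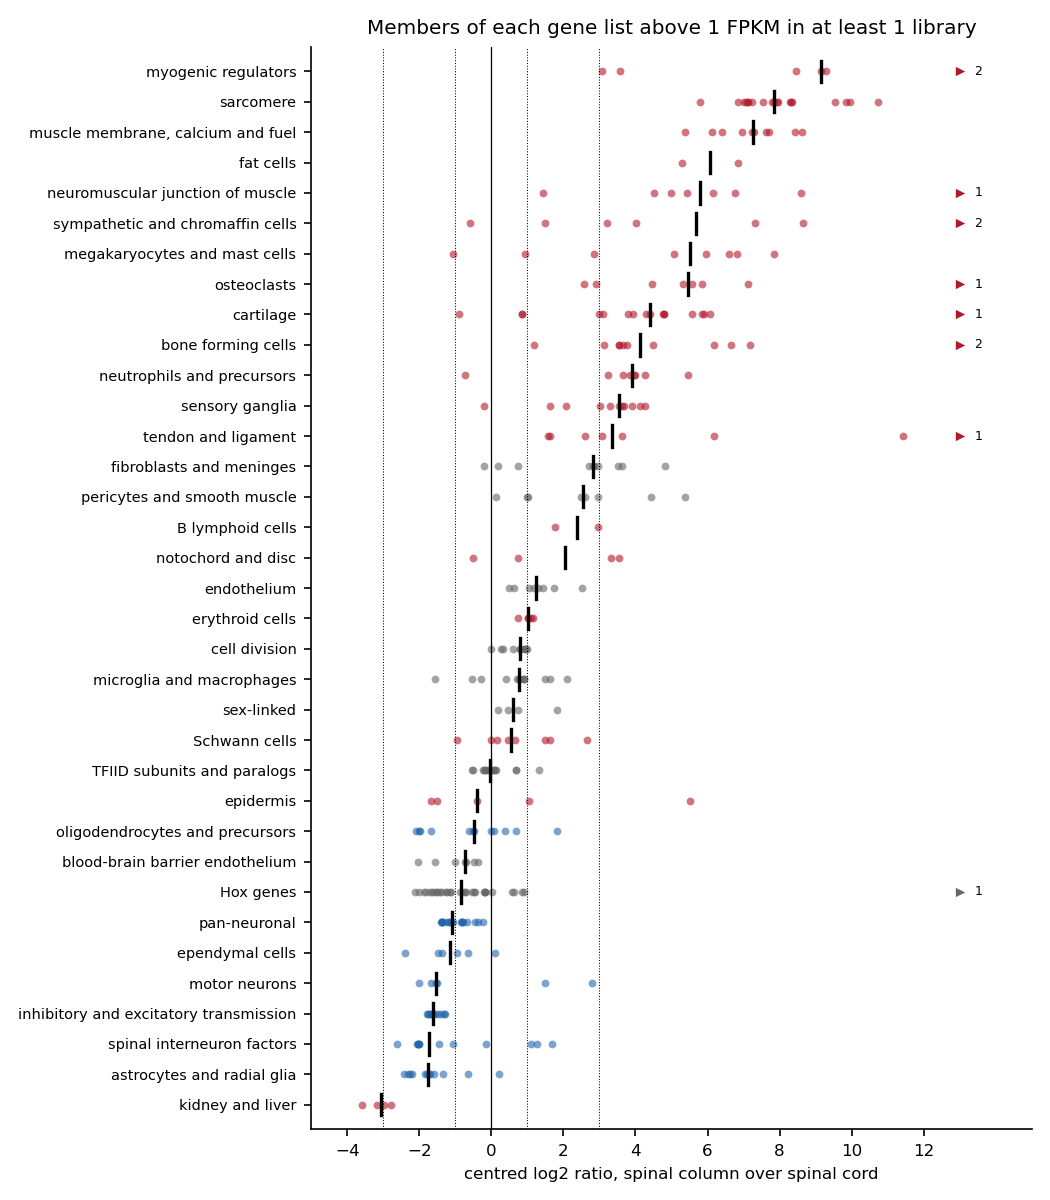
Each point is a member above 1 FPKM in at least 1 tissue, placed by its centred log2 ratio of spinal column over spinal cord, with 1 row per gene list. Black bars are medians, dotted lines mark 2-fold and 8-fold, triangles with a number count members at about 0 in cord, and colours give the class each list was put in (red for tissues around the cord, blue for cord cells, grey for the rest). The myogenic, sarcomere and muscle membrane lists have the highest medians and the kidney and liver list, of which only liver genes were measured, furthest to the left.

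Blood was read in both tissues. Of 23 measured genes of blood and marrow, 19 were higher in the column and 1, *Gp1bb*, was lower, beside 19.3% and 13.7% of all loci. Globins stood close to the 2-fold line on either side of it. *Hba-a2* was at 2938 FPKM in column and 1899 FPKM in cord, and was among the 10 most abundant transcripts of both. The adult beta globins were at 2180 and 1155 FPKM (*Hbb-b1*, now *Hbb-bs*) and 965 and 469 FPKM (*Hbb-b2*, now *Hbb-bt*). Near-identical globin copies share reads, so how the software split them between genes is uncertain. The heme synthesis enzyme *Alas2* was at 17.1 and 9.09 FPKM, and the erythroid factors *Klf1* and *Gata1* stayed under 1 FPKM in both tissues. The 5 measured erythroid genes lay in a narrow band of 0.74 to 1.15 on the log2 scale, around the 2-fold line. How many of them passed it depended on the scaling, as given below.

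Genes of white cells, mast cells and platelets mostly stood further apart. Of 8 measured neutrophil genes 7 were higher, all of them past 8-fold, with a median log2 ratio of 3.90. *S100a8*, a calcium-binding protein of mature neutrophils, was at 406 FPKM in column and 30.8 FPKM in cord, *S100a9* at 127 and 14.5 FPKM, *Lcn2* at 67.3 and 1.66 FPKM and the granule gene *Ngp* at 35.6 and 3.06 FPKM. The granule enzymes of earlier precursors were low, with *Elane* at 0 in both, *Mpo* at 0.584 and 0.173 FPKM, and *Prtn3* at 1.17 and 2.11 FPKM. *Pf4*, a platelet chemokine, was at 116 and 17.3 FPKM. The mast cell proteases differed more, with *Cpa3* at 23.8 and 0.112 FPKM and *Tpsb2* at 59.4 and 1.03 FPKM. The platelet gene *Gp1bb*, at 78.8 and 177 FPKM, was the lower one. B lymphoid genes were near the floor, with *Cd79a* at 2.17 and 0.30 FPKM and *Cd79b* at 1.54 and 0.487 FPKM.

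Connective tissue and vessels were shared by both tissues, with more in the column. Of 10 genes of fibroblasts and meninges 7 were higher, among them *Postn* (407 FPKM in column and 15.5 FPKM in cord), *Col3a1* (495 and 68.7 FPKM), *Dcn* (163 and 24.7 FPKM) and *Lum* (34.4 and 3.26 FPKM). *Foxc1*, *Aldh1a2* and *Ptgds*, genes of the meninges that cover the cord itself, differed by less than 2-fold, *Ptgds* being at 351 and 337 FPKM. The general endothelial genes were higher at 6 of 8, beside 19.3% of all loci. *Pecam1* was at 26.8 and 5.03 FPKM, *Cdh5* at 31.4 and 13.8 FPKM and *Kdr* at 5.99 and 4.62 FPKM. The genes of blood-brain barrier endothelium went the other way. Beside 19.3% of all loci higher and 13.7% lower, 0 of 7 were higher and 3 lower. Of these *Slc38a5* was at 1.01 and 4.47 FPKM, *Slco1c1*, a thyroid hormone transporter, at 2.19 and 6.96 FPKM and *Mfsd2a*, a lipid transporter, at 11.2 and 24.7 FPKM. *Cldn5*, the tight junction protein of that barrier, was at 34.0 and 60.3 FPKM, within 2-fold. Both endothelial counts depended on the scaling, as given below. Of the pericyte and smooth muscle genes 6 of 8 were higher. The smooth muscle actin *Acta2* (118 and 3.11 FPKM) had the highest ratio of them and the pericyte marker *Rgs5* (17.2 and 17.1 FPKM) the lowest. Among the genes of fat cells only *Fabp4* (203 and 1.91 FPKM) and *Pparg* (2.48 and 0.0689 FPKM) were measured, and *Adipoq* was at 0.786 and 0 FPKM.

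Microglia and macrophages could not be assigned to 1 tissue. Of 13 measured genes 3 were higher in the column and 1 lower, which is near the shares of all loci (19.3% and 13.7%). *Tmem119* (17.6 FPKM in column and 4.45 FPKM in cord), *Mrc1* (9.19 and 3.55 FPKM) and *Lyve1* (11.6 and 4.03 FPKM) were higher, the last pair marking macrophages of vessels and linings. *Tmem119* is a marker of microglia in the brain and is also expressed by osteoblasts. The fractalkine receptor *Cx3cr1*, at 1.78 and 5.68 FPKM, was lower, and the microglial receptor *P2ry12* was at 2.11 and 2.77 FPKM. The complement gene *C1qb* had the highest level of the list in both tissues, at 60.0 and 39.7 FPKM.

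Genes of sensory ganglia, which lie beside the cord, were mostly on the column side. Of 11 measured genes of sensory ganglia 10 were higher, beside 19.3% of all loci, with a median log2 ratio of 3.54. The sodium channel *Scn10a* of pain-sensing neurons was at 13.9 FPKM in column and 1.002 FPKM in cord, the actin-binding *Avil* at 28.1 and 2.48 FPKM, and *Scn11a* at 5.51 and 0.308 FPKM. The filament gene *Prph* was the most abundant at 193 and 67.2 FPKM, and motor neurons also make it. The exception was *Pou4f1*, a transcription factor of sensory neurons and of some cord interneurons, at 8.76 and 10.8 FPKM. All 11 were listed above 0 in the cord library, at 0.213 to 67.2 FPKM, the lowest of them under the 1 FPKM filter.

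Sympathetic neurons and chromaffin cells make noradrenaline and adrenaline, and their genes set the column further apart from the cord. Of 8 genes 7 were higher, beside 19.3% of all loci, with a median log2 ratio of 5.68. *Dbh*, which makes noradrenaline, was at 11.8 FPKM in column and 0.0315 FPKM in cord, and *Th*, which makes its precursor, was at 10.2 and 0.674 FPKM. The factor *Hand2* was at 4.65 FPKM in column and listed at 0 in cord. *Chrna3*, a receptor subunit that cord neurons share, was at 3.32 and 5.39 FPKM. Schwann cells, the glia of peripheral nerves, were read in both tissues. Of their 8 genes 3 were higher and none past 8-fold, beside 19.3% and 5.87% of all loci. Their factor *Egr2* was at 1.21 and 1.32 FPKM, and *Prx* at 8.68 and 6.81 FPKM. *Pmp22*, which bone and fibroblasts also express, was at 168 and 28.8 FPKM, or 6.33-fold. *Drp2* had the lowest ratio, at 2.40 and 5.04 FPKM.

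**Figure D3:**
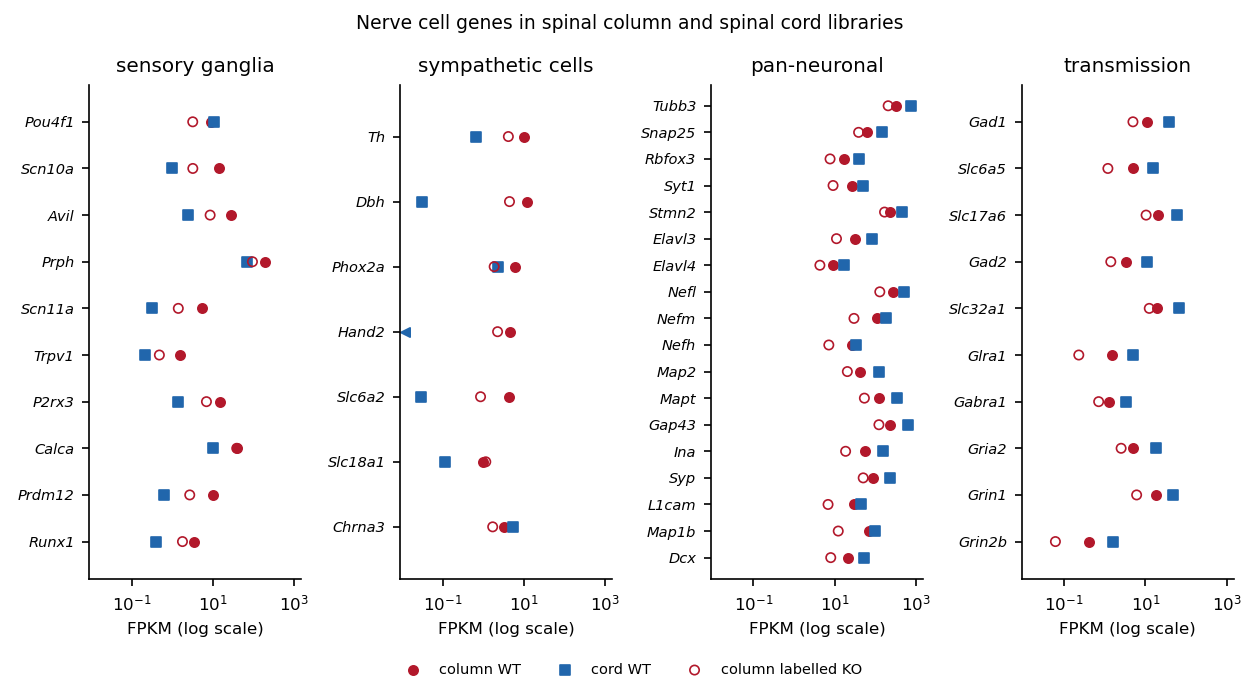
FPKM on a log scale of single genes of sensory ganglia, sympathetic cells, neurons in general and transmission in cord neurons, in newborn WT column (filled circles), WT cord (squares) and column labelled KO (open circles), with 1 library each. Triangles at the left edge are genes listed at 0. In the first and second panels the WT column lies to the right of the cord for all genes shown but *Pou4f1* and *Chrna3*, and in the other panels it lies to the left for all genes shown.

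Genes of cord neurons and glia were lower in the column, but by far less than muscle genes were higher. Of 77 measured genes 50 were lower past 2-fold, against 13.7% of all loci, 6 were higher, and 0 were lower past 8-fold. Their median log2 ratio was -1.36, and they made up 0.532% of the summed FPKM of the column and 1.65% of the cord. In the column library labelled KO they made up 0.198%.

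Among 18 genes that neurons in general express 10 were lower and 0 higher. *Tubb3*, the neuronal beta tubulin, was at 331 FPKM in column and 749 FPKM in cord, the synaptic gene *Snap25* at 62.3 and 151 FPKM, and *Rbfox3*, which encodes the antigen NeuN, at 17.2 and 40.2 FPKM. The lowest ratio belonged to *Map2*, a protein of dendrites, at 42.3 and 121 FPKM or 2.65-fold in favour of the cord. The highest belonged to the neurofilament *Nefh*, a protein of large axons, at 27.0 and 33.9 FPKM. *Nefm* (110 and 189 FPKM), *Map1b* (70.1 and 98.8 FPKM) and *L1cam* (30.2 and 44.4 FPKM), which the study followed in its column tissue, were within 2-fold of the cord. Sensory neurons express all of these as well.

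The genes of inhibitory and excitatory transmission were lower at 11 of 11, in a narrow range of -1.79 to -1.27 on the log2 scale. *Gad1*, which makes GABA, was at 11.2 FPKM in column and 38.8 FPKM in cord, the glycine transporter *Slc6a5* at 4.99 and 15.1 FPKM, and *Slc17a6*, which loads glutamate into vesicles, at 20.8 and 59.3 FPKM. *Grin2b*, an NMDA receptor subunit, had the lowest ratio (0.418 and 1.56 FPKM) and *Grin1* the highest (18.5 and 48.5 FPKM). The median of the list corresponded to a level 3.04-fold higher in the cord.

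Of the 12 measured interneuron factors, 8 were lower, with *Lhx1* at 2.19 FPKM in column and 9.74 FPKM in cord, *Pax2* at 8.63 and 25.7 FPKM, *Lbx1* at 4.48 and 20.2 FPKM and *Lhx5*, the lowest, at 1.13 and 7.49 FPKM. *En1*, *Gata2* and *Gata3* were higher, at 2.80 and 0.946, 4.26 and 1.92, and 1.34 and 0.671 FPKM. *Gata2* and *Gata3* also serve in blood and sympathetic cells. Motor neuron genes divided in the same way. *Slc18a3*, the transporter that loads acetylcholine into vesicles, was at 6.5 and 22.5 FPKM, *Mnx1* at 0.353 and 1.54 FPKM and *Lhx3* at 0.727 and 2.29 FPKM, while *Chat* stayed under 1 FPKM in both tissues. *Isl1* (7.57 and 2.91 FPKM) and *Isl2* (19.7 and 3.07 FPKM, or 6.94-fold), which sensory and, for *Isl1*, sympathetic neurons also express, were higher in the column. *Isl2* thus stood on the side of the ganglion genes and apart from *Mnx1* and *Lhx3*, and which cells it came from was not tested.

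Astrocytes and radial glia had the lowest median of the cord lists, -1.76, with 10 of 12 genes lower. *Gfap*, the astrocyte filament, was at 23.6 FPKM in column and 117 FPKM in cord, the water channel *Aqp4* at 13.8 and 72.0 FPKM, the glutamate transporter *Slc1a2* at 10.6 and 39.2 FPKM and *Fabp7*, a lipid-binding protein of radial glia, at 136 and 729 FPKM. The Notch target *Hes5* had the lowest ratio, at 3.65 and 21.2 FPKM. *S100b*, which Schwann cells and cartilage also make, was at 15.3 and 14.2 FPKM. In the oligodendrocyte lineage the precursor factors *Olig1* (18.3 and 79.3 FPKM), *Olig2* (4.24 and 14.7 FPKM) and *Nkx2-2* (1.63 and 7.50 FPKM) and the receptor *Gpr17* (3.71 and 15.7 FPKM) were the 4 genes of 12 that were lower. The myelin genes *Mbp* (57.1 and 61.8 FPKM) and *Mag* (3.87 and 3.97 FPKM), which Schwann cells share, were within 2-fold, and *Cspg4*, which pericytes and cartilage share, was higher at 10.04 and 3.09 FPKM. *Mog*, a late myelin gene of the central nervous system, stayed under 1 FPKM in both. Of 6 ependymal genes 3 were lower, with the cilia factor *Foxj1* at 3.14 and 9.47 FPKM and *Ccdc153* at 0.318 and 1.81 FPKM.

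Some genes of organs outside the spine were higher in the cord library. The 4 measured genes of the kidney and liver list were all liver genes and all lower in the column. *Alb*, serum albumin, was at 2.50 FPKM in column and 32.8 FPKM in cord, or 12.1-fold, *Apoa1* at 2.13 and 20.9 FPKM, *Afp* at 0.831 and 7.04 FPKM and *Ttr* at 0.545 and 4.02 FPKM. The kidney genes *Nphs1*, *Slc34a1* and *Umod* stayed under 1 FPKM in both libraries. *Ahsg*, another plasma protein of liver, was at 2.31 and 30.4 FPKM, and *Apoa2* at 2.26 and 17.7 FPKM, which put *Ahsg*, *Alb*, *Apoa1* and *Apoa2* among the 10 lowest ratios above 1 FPKM in both tissues. The others of these 10 were *Slc7a11*, a cystine transporter that meninges and astrocytes express (1.56 and 25.1 FPKM, the lowest at -3.89), the GABA receptor subunit *Gabra2* (1.61 and 12.5 FPKM), the receptor *Gpr139* (1.33 and 9.58 FPKM), the noncoding *B830017H08Rik*, and the short RNAs *Mir5126* and *Snora41*. Of the 63 loci lower past 8-fold, 12 belonged to a list of 24 liver genes that was written after these values were seen, so the count is no evidence for the list. Of all 14198 loci 22 belonged to it and 0.444% were lower past 8-fold. The part of liver RNA in the cord library was not tested beyond these levels. Of 5 measured epidermal genes 2 were higher and 2 lower, with *Krt10* at 3.60 and 5.18 FPKM and *Krt5* and *Krt14* under 1 FPKM in both.

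*Hox* genes are expressed along the trunk in both the cord and the vertebrae, in an order that follows their place in the clusters. Of 32 measured genes 15 were lower and 1, *Hoxd1* (1.51 FPKM in column and about 0 in cord), was higher, beside 13.7% and 19.3% of all loci, with a median log2 ratio of -0.83. Summed, the *Hox* genes came to 324 FPKM in column and 792 FPKM in cord. *Hoxb8* was the highest in both, at 77.1 and 252 FPKM. Paralog group 10, which marks the lumbar level in vertebrae, was led by *Hoxc10* at 31.8 and 46.9 FPKM, beside *Hoxd10* at 17.5 and 41.0 FPKM and *Hoxa10* at 12.4 and 24.4 FPKM. Only *Hoxd10* of these was past 2-fold. All 3 genes of group 11 were lower, *Hoxc11* being at 10.1 and 29.3 FPKM, *Hoxd11* at 3.35 and 11.3 FPKM and *Hoxa11* at 1.89 and 7.48 FPKM, and so was *Hoxc12*, at 10.3 and 45.0 FPKM. Groups 10 to 13 together had 6 of 9 genes lower with a median of -1.24, and groups 4 to 9 had 7 of 17 with a median of -0.74.

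Cluster B had 7 of 9 genes lower with a median of -1.35, while clusters A, C and D had medians of -0.74, -0.31 and -0.66. *Hoxb1* was listed at 0 in both tissues. The *Hox* genes with the highest ratios after *Hoxd1* were *Hoxc6* (5.36 FPKM in column and 3.08 FPKM in cord), *Hoxa4* (2.48 and 1.49 FPKM), *Hoxc4* (3.59 and 2.51 FPKM) and *Hoxd8* (12.1 and 8.74 FPKM), all within 2-fold. *Hoxa6* had the lowest, at 1.57 and 7.38 FPKM. Since the column was lumbar and the level of the cord was not given, level along the trunk and tissue make-up cannot be told apart here.

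**Figure D4:**
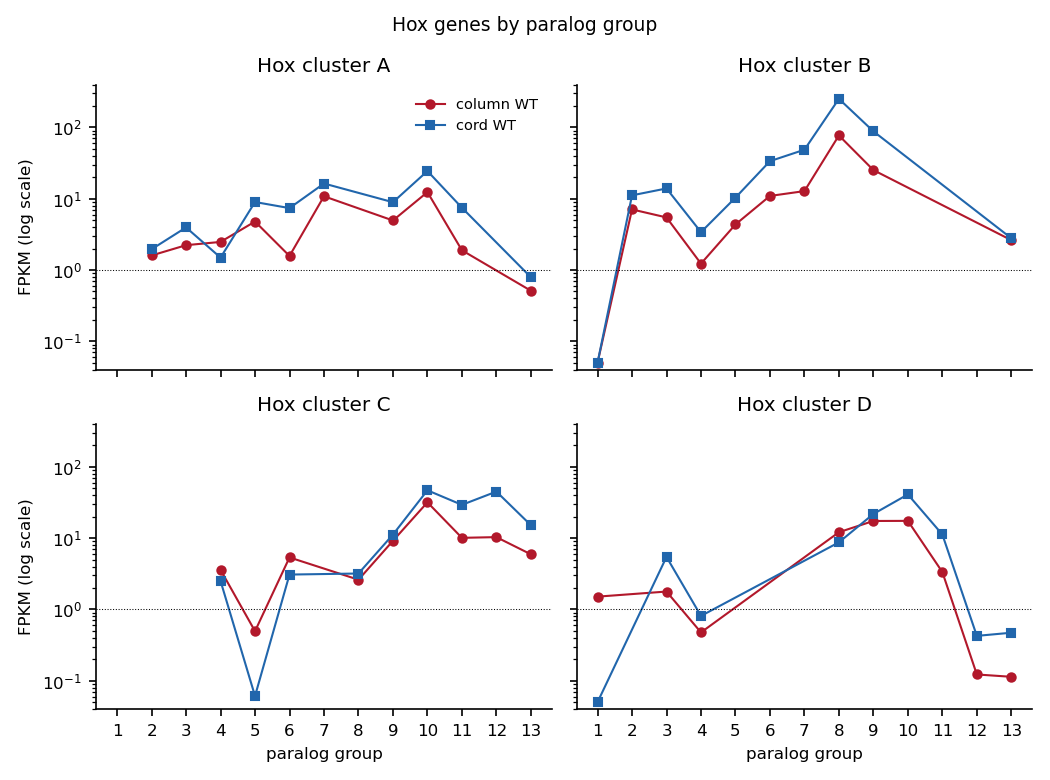
FPKM on a log scale of *Hox* genes in newborn WT spinal column (circles) and WT spinal cord (squares), by paralog group, with 1 panel per cluster and 1 library per tissue. Values under 0.05 FPKM are drawn at 0.05 and the dotted line is 1 FPKM. The cord lies above the column from group 2 to group 13 of cluster B, and the highest point is *Hoxb8* in both tissues.

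TFIID is the complex of TBP and its associated factors (TAFs) that starts transcription at promoters, and TAF9B is a paralog of its subunit TAF9. Of 15 measured TFIID genes 1 was higher and 0 lower, with a median log2 ratio of -0.05. This median depended on the setting, at -0.45 when scaled to summed FPKM and 0.22 with the column labelled KO in place of WT. *Taf9b* was at 6.65 FPKM in column and 7.44 FPKM in cord, and *Taf9* at 56.2 and 66.7 FPKM. *Tbp* was at 8.95 and 10.4 FPKM. *Taf10* had the highest level in both, at 71.0 and 71.8 FPKM. *Taf7*, at 6.28 and 2.73 FPKM, was the 1 gene past 2-fold, and *Taf5*, at 1.70 and 2.67 FPKM, had the lowest ratio. The level of *Taf9b* in the column labelled KO, 3.31 FPKM, is given above with those of the other libraries. Genes of cell division were within 2-fold at 10 of 10, with a median of 0.80 that was 0.40 when scaled to summed FPKM, *Mki67* being at 3.35 and 2.09 FPKM, *Top2a* at 7.50 and 5.33 FPKM and *Ccnb1* at 6.96 and 3.83 FPKM. *Cdk1* had the highest ratio (6.37 and 3.48 FPKM). The sex-linked genes were alike in kind, with *Xist* at about 0 and the Y-linked *Ddx3y*, *Eif2s3y*, *Kdm5d* and *Uty* between 1.47 and 15.7 FPKM in both libraries. Only *Eif2s3y* (15.7 and 4.84 FPKM) was past 2-fold.

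Loci of status HIDATA are left out of the ranks in this paragraph. Among these, *Myl1*, *Mylpf*, *Gapdh* and *Ckm* were listed above *Rpl41* in the column, and *Eef1a1* above *Ppia* in the cord. The most abundant transcripts of the column that were ranked were, after *Tnnc2*, the ribosomal protein gene *Rpl41* (3332 FPKM, with 2996 FPKM in cord) and the glycolytic enzyme *Aldoa* (3154 and 469 FPKM). Next came *Rplp1*, *Hba-a2*, *Tnnt3*, *Rps28*, *Actc1*, *Tnni2* and *Tpt1* (2798 and 1059 FPKM). In the cord they included *Rpl41*, the actin-binding *Tmsb10* (2878 FPKM, with 1501 FPKM in column), *Rps27*, *Rps28*, *Ppia*, *Hba-a2*, *Rpl39*, *Rplp1* and *Rps29*. Of the 10 ranked in the column 4 were genes of the muscle lists, and of the 10 ranked in the cord 0 were. The muscle genes *Myl1* (7810 FPKM in column), *Mylpf* (6728 FPKM) and *Ckm* (3407 FPKM) are not in this count because of their HIDATA status.

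Short RNA genes took a larger share of the extremes than of all loci. MicroRNA hairpins and small nucleolar RNAs made up 107 of the 14198 loci, but 16 of the 63 loci lower past 8-fold and 57 of the 834 higher past 8-fold. Of all 46 small nucleolar RNA loci 27 were higher past 8-fold, and *Snord37* (2452 FPKM), *Snord42b* (1437 FPKM), *Snord110* (969 FPKM), *Snord49b* (395 FPKM), *Snord49a* (322 FPKM) and *Snord83b* (304 FPKM) were at 0 in cord. *Snord37*, *Snord110*, *Snord49b*, *Snord49a* and *Snord83b* were at 0 in the column labelled KO too, while *Snord42b* was at 5132 FPKM there. FPKM divides by a very short length at these loci, so a few reads give a high value, and a poly-A library reads only fragments of them or of their host transcripts. Next to them, the transcripts highest in the column among those under 1 FPKM in cord were *6430411K18Rik* (1566 and 0.883 FPKM) and *DQ267100* (367 and 0 FPKM), both noncoding RNAs of chromosome 12, *Myh3*, and *Csrp3*, a protein of the muscle Z-disc (398 and 0.543 FPKM).

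On the cord side all 10 transcripts highest in FPKM among those under 1 FPKM in the column were short RNA loci at 0 in the column. They included the hairpins *Mir9-2* (541 FPKM), *Mir128-1* (277 FPKM), *Mir124a-2* (110 FPKM) and *Mir7-1* (57.7 FPKM), whose microRNAs are known from neurons and neural progenitors. The others were *Mir877*, *Mir3112*, *Mir2861*, *Snora3*, *Mir3061* and *Mir1983*, at 165 to 35.2 FPKM. In the column labelled KO *Mir3061* was at 127 FPKM and *Mir2861* at 77.4 FPKM, while the rest of the 10 were at 0. On the column side, hairpins chosen after their values were seen were *Mir485* (215 and 0 FPKM), *Mir133a-1*, of a muscle microRNA (161 and 0 FPKM), *Mirlet7c-2* (123 and 5.31 FPKM), *Mir134* (118 and 0 FPKM) and *Mir196b*, which lies in *Hox* cluster A (50.3 and 0 FPKM). In the column labelled KO *Mir485* and *Mir134* were at 0, while *Mir133a-1* was at 356 FPKM, *Mirlet7c-2* at 158 FPKM and *Mir196b* at 191 FPKM. The other muscle hairpins *Mir1a-1*, *Mir1a-2*, *Mir133a-2*, *Mir133b*, *Mir206* and *Mir499* were at 0 in both WT libraries. These values count reads over hairpin loci and not mature microRNAs. The mature sequences, from RefSeq, are shown to name the molecules behind these loci, with the seed (bases 2 to 8) in capitals, and the 7 sequences shown have different seeds.
Cord side, miR-9-5p: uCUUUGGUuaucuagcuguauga
Cord side, miR-128-3p: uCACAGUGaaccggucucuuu
Cord side, miR-7a-5p: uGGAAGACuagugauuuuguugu
Column side, let-7c-5p: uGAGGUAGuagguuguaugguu
Column side, miR-134-5p: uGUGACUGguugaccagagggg
Column side, miR-485-3p: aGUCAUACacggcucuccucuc
Column side, miR-196b-5p: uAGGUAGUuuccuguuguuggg

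The loci far above the cord were read again in the other column library. Of the 834 loci higher past 8-fold, 757 (90.8%) were above 1 FPKM in the column labelled KO, where 92.1% of all 14198 loci were. Of all loci 876 were more than 8-fold above the cord there before any centring, and 722 of these were among the 834. The columns labelled KO and WT share a table, and both are set against the same cord library, so this is no independent comparison. Since 571 of the 834 passed the filter through the column only, their shares in other libraries are descriptions only. At day 6 of EB differentiation 303 of the 834 (36.3%) were above 1 FPKM in the WT library, beside 81.4% of all 14198 loci. In WT ES cells 332 (39.8%) were, beside 77.9% of all loci. Of the 63 loci lower past 8-fold, 12 (19.0%) were above 1 FPKM at day 6 and 20 (31.7%) in the column labelled KO. Of the 1952 loci lower past 2-fold, 57.2% were above 1 FPKM at day 6, which like the 19.0% is under the 81.4% of all loci.

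The series maps TAF9B and RNA POL2 by ChIP-seq in EB motor neuron cultures, from 1 library each, and these peaks were set at the start sites of the loci compared here. Of 13717 loci with a start site, 26.1% (95% Wilson interval 25.3 to 26.8%) had a TAF9B peak whose midpoint lay within 500 bp and 45.2% (44.4 to 46.1%) a POL2 peak. Among loci within 2-fold between the tissues the shares were 30.0% (29.0 to 30.9%) and 56.3% (55.3 to 57.3%). Among the loci higher in the column past 8-fold, 80 of 785 had a TAF9B peak (10.2%, 8.26 to 12.5%) and 70 a POL2 peak (8.92%, 7.12 to 11.1%). The start site was taken as the end of the locus span that its strand gives. At short RNA loci this span can be that of the host transcript. *Snord49a* and *Snord49b*, both among the 80, share 1 span, so the same peak counts at both. Loci lower past 2-fold had shares of 20.5% (18.7 to 22.4%) for TAF9B and 22.1% (20.3 to 24.1%) for POL2. Loci higher past 2-fold had shares of 16.3% (14.9 to 17.8%) and 22.6% (21.0 to 24.2%). The intervals cover counting error only, and since both shares come from the same loci they are no test of a difference between the factors. Most loci past 8-fold passed the 1 FPKM filter through 1 tissue only, so the shares are descriptions.

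Of the 43 muscle loci with a start site 3 had a TAF9B peak (*Actn2*, *Chrnb1* and *Ryr1*) and 1 a POL2 peak. Of the 77 loci of cord neurons and glia 15 (19.5%, 12.2 to 29.7%) had a TAF9B peak and 15 a POL2 peak. Among loci that were above 1 FPKM in the EB library of day 6, 49 of 282 loci higher past 8-fold had a TAF9B peak (17.4%, 13.4 to 22.2%), against 29.1% (28.2 to 29.9%) of all 11218, and 50 had a POL2 peak (17.7%, 13.7 to 22.6%), against 53.6% (52.6 to 54.5%).

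**Figure D5:**
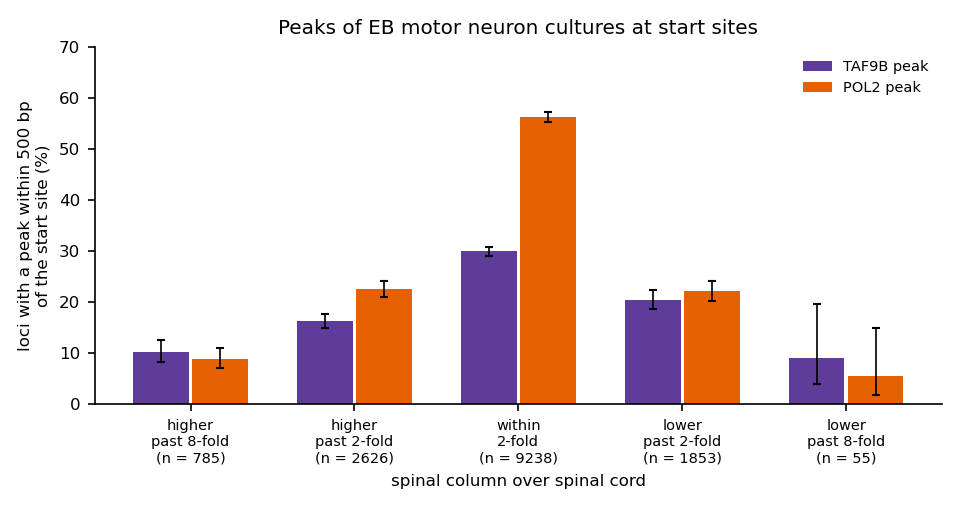
Share of loci, in percent, with a TAF9B or POL2 peak of EB motor neuron cultures within 500 bp of the start site, by how spinal column and spinal cord differ at the locus. Error bars are 95% Wilson intervals and cover counting error only, and loci past 8-fold are also among those past 2-fold. The bars are highest within 2-fold, at 30.0% for TAF9B and 56.3% for POL2, and lowest past 8-fold in either direction.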

How the data were processed

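Poly-A RNA was sequenced from newborn WT spinal column and newborn WT spinal cord, 1 library each. The authors mapped the reads against RefSeq genes (mm9) with TopHat and made FPKM values with Cuffdiff in 2 separate tables, and versions are not given in the sources used here. Their columns of log2 fold changes and p-values were not used. The score of each ChIP peak is the MACS score the authors deposited after Bowtie mapping, and only peak positions were used.

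The 23152 rows were joined on gene and locus after 43 rows with a repeated key were left out, and 15 loci of status HIDATA were left out. Symbols came from RefSeq accessions, and *Scn9a*, *Ahsp* and *Hba-a1* found no match. Log2 ratios took no pseudocount. A locus listed at 0 in 1 tissue stands beyond every measured ratio, and values under 0.01 FPKM are called about 0 and given no fold. Low values showed no steps of whole reads, so the depth is unknown, and no interval for an FPKM value can be given. The summed FPKM of the loci used was 495576 for column, 406101 for cord and 758606 for the column labelled KO.

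The members and the gene lists were chosen with earlier results of these data known. Genes named are the 10 loci with the highest and the 10 with the lowest ratio above 1 FPKM in both tissues, the 10 symbols with the most FPKM in each library, the 10 highest on each side among those under 1 FPKM on the other, the first 3 members of each list with its most abundant and extreme members, *Taf9b* and the genes the study followed in column, and all HIDATA loci. All further genes are picks made with their values in view, and the values of some genes that the rule would name are not reported here. The counting was tested on simulated data. Alternatives were other centrings, a 1 FPKM pseudocount, other filters, HIDATA loci kept, a join on symbols, the column labelled KO and a lowess correction for transcript length with a fraction of 0.3. Ratios were computed with pandas 2.3.3 and numpy 2.4.6 in Python 3.11.15, intervals and lowess fits with statsmodels 0.14.6, and plots with matplotlib 3.10.9.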

Additional observations from a re-analysis of the deposited data

Results flagged for a closer look

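The spinal column library labelled KO, which the comparison of column with cord does not use, held 5 of the gene lists at over 1.5 times their share of summed FPKM in the column labelled WT. The 8 genes of the epidermis list summed to 1331.19 FPKM in the column labelled KO, against 18.2 FPKM in the WT column and 28.6 FPKM in the cord, with *Krtdap* at 487 FPKM, *Krt10* at 352 FPKM and *Krt1* at 238 FPKM in the column labelled KO. The 8 genes of the fat cell list summed to 524.732 FPKM in the column labelled KO, against 208 FPKM in the WT column and 2.33 FPKM in the cord, or 0.0692%, 0.0419% and 0.00057% of the summed FPKM of each library, with *Fabp4* at 485 FPKM, *Cfd* at 20.5 FPKM and *Adipoq* at 13.01 FPKM in the column labelled KO. The erythroid list summed to 15251.008 FPKM in the column labelled KO and 6105 FPKM in the WT column (2.01% and 1.23%), the notochord and disc list to 18.184 and 6.95 FPKM (0.00240% and 0.00140%), and the kidney and liver list to 29.65 and 6.27 FPKM (0.00391% and 0.00127%). The difference between these single libraries was not tested.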

How the results depend on the processing

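Single genes recomputed were the 10 with the highest and the 10 with the lowest ratio above 1 FPKM in both tissues, *Taf9b* and the genes the study followed, and none of these changed sign. Genes with ratios near 0 can change sign with the scaling. The balance of loci past 2-fold turned, from 2735 higher and 1952 lower to 1974 higher and 3377 lower when scaled to summed FPKM. Keeping HIDATA loci, joining on symbols and, chosen after seeing the data, leaving out microRNA and small nucleolar RNA loci moved no result. Lists are given below by their members past 2-fold in the list's own direction. The main counts were erythroid 4, B lymphoid 2, fat 2, epidermis 2, notochord 2, osteoclasts 8, neutrophils 7, sympathetic 7, Schwann 3, endothelium 6, microglia 3, cell division 0, TFIID 1 (higher), and kidney and liver 4, pan-neuronal 10, motor neurons 4, ependymal 3 and blood-brain barrier 3 (lower).

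Without centring, the erythroid count was 1 and the epidermis count 1. Scaled to summed FPKM, erythroid was 0, epidermis 1, ependymal 5, endothelium 3, blood-brain barrier 5 and TFIID 0, and the median log2 ratio was 0.40 for cell division and -0.45 for TFIID. Centred on loci above 10 FPKM, cell division was 1. With 1 FPKM added, loci lower past 2-fold numbered 1244, and past 8-fold 417 were higher and 18 lower, with erythroid 2, B lymphoid 1, epidermis 1, motor neurons 2 and ependymal 1. With no filter, 4672 loci were higher and 3099 lower past 2-fold and 2224 and 565 past 8-fold, with erythroid 9, B lymphoid 6, fat 5 and epidermis 4. Above 5 FPKM, 1772 were higher past 2-fold, and 554 higher and 24 lower past 8-fold, with osteoclasts 5, notochord 0, B lymphoid 0, fat 1, epidermis 0, sympathetic 3, motor neurons 1 and ependymal 1. With the column labelled KO in place of WT, 3432 were lower past 2-fold and 341 past 8-fold, with notochord 4, neutrophils 11, B lymphoid 4, fat 6, epidermis 8, kidney and liver 2, sympathetic 4, Schwann 1, pan-neuronal 18, microglia 7, blood-brain barrier 6, cell division 5 and TFIID 3, the last at a median of 0.22. With the trend with transcript length removed, erythroid was 2, epidermis 1 and cell division 1. Changing the filter changes how many loci are counted, and the cause of the other moves was not tested. Beyond these, the genes that the study followed moved past 2-fold with the column labelled KO, *Map1b* to -3.01, *L1cam* to -2.69, *Nefm* to -2.66, *Nefh* to -2.24 and *Taf9b* to -1.17 on the log2 scale, and *Nefm* stood at -1.07 when scaled to summed FPKM.

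No paired analysis was possible because each tissue has 1 library and the results come from no test. For the same reason no setting leaves out a replicate. The unknown depth limits all values near 0, and the lack of replicates leaves differences near 2-fold without an error.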

Other observations

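Several imprinted genes were far apart between the tissues, and all of those named here were chosen after their values were seen. In the stretch of chromosome 12 from *Dlk1* to *Mirg*, the protein-coding *Dlk1* was at 419 FPKM in column and 14.1 FPKM in cord (32.2-fold) and *Rtl1* at 16.3 and 0.484 FPKM (36.5-fold). The noncoding *Mirg* was at 42.8 and 1.11 FPKM, *Meg3* at 82.0 and 20.3 FPKM and *Rian* at 541 and 185 FPKM. *6430411K18Rik* overlaps *Rtl1*, and without information on strand their reads cannot be told apart. Elsewhere *Plagl1* (140 and 7.24 FPKM), *Mest* (342 and 35.5 FPKM), *Cdkn1c* (502 and 59.2 FPKM), *Grb10* (201 and 25.2 FPKM), *Igf2r* (29.7 and 3.77 FPKM) and *Zim1* (19.2 and 3.26 FPKM) were higher in the column. *Nnat*, a gene of neural tissue, was lower at 345 and 1035 FPKM, as were *Usp29* (2.99 and 9.26 FPKM) and *Snrpn* (103 and 230 FPKM), and *Peg10*, *Magel2*, *Gnas*, *Peg3*, *Ndn*, *Sgce* and *Impact* were within 2-fold. Of the 22 loci picked 12 were higher past 2-fold, 3 lower and 7 within 2-fold, beside 19.3% higher and 13.7% lower of all loci, and since they were picked by eye these counts are no evidence for imprinted genes as a group.

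Histone genes of the clusters, also chosen after their values were seen, were higher in the column at 27 of 33 loci above 1 FPKM in at least 1 tissue, with 12 past 8-fold and 0 lower, beside 19.3%, 5.87% and 13.7% of all loci. Their median log2 ratio was 1.78. Of the 33 loci 20 were at or under 1 FPKM in cord, among them 10 of the 12, so these passed the filter through the column only. *H1f2* was at 119 FPKM in column and 7.40 FPKM in cord, *H2bc4* at 131 and 16.7 FPKM and *H4c8* at 13.9 and 0.0164 FPKM. The genes of cell division were within 2-fold, at a median of 0.80. Many of these histone transcripts end without a poly-A tail, as small nucleolar RNAs do, and of the latter 27 of 46 loci were higher past 8-fold. Whether poly-A selection differed between the libraries was not tested.

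Of the list of liver genes written after their values were seen, 22 were above 1 FPKM in at least 1 tissue, with 19 lower in the column past 2-fold, 1 higher and 2 within 2-fold. *Fgb* was at 0.284 FPKM in column and 6.97 FPKM in cord, *Serpina1e* at 0.698 and 8.19 FPKM and *Ambp* at 0.0590 and 1.34 FPKM, while *Hp*, which neutrophils also make, was at 11.5 and 3.52 FPKM. *Rbp4* (13.5 and 9.81 FPKM) and *Trf* (23.1 and 32.9 FPKM) were within 2-fold. In the column labelled KO *Alb* was at 16.7 FPKM.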
